A study of Mus musculus with 19 samples.

Results

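The genes described are 9 enzymes of folate one-carbon metabolism, Shmt1, Shmt2, Mthfd1, Mthfd1l, Mthfd2, Aldh1l1, Aldh1l2, Dmgdh and Sardh, measured in mouse liver. They were chosen by gene symbol, for their place in the pathway in cytosol or mitochondria, and each has a probe set among the 19505 genes tested. The choice was made with earlier results of these data known, so the counts below are not independent of them. The samples were livers of 9 control mice, Mmut-ki/wt, and 10 mutant mice, Mmut-ko/ki, each on 1 Mouse Clariom S array. Mmut encodes methylmalonyl-CoA mutase, the mitochondrial enzyme that is deficient in methylmalonic aciduria. Mutants carried a knockout allele and a knock-in allele (ki, MMUT-p.Met700Lys), and controls carried a wild-type allele and the same knock-in allele, so the controls were not fully wild type. All 19 mice were males of the C57BL/6N strain, each aged 20 weeks by its label, and by the study's methods they had a high-protein diet with free access to food. The paper calls its controls littermates of the mutants. Which mice shared a litter is not in the labels used here, so litter was not accounted for. A level below is the log2 signal of a gene's probe set, a change is the mutant mean minus the control mean on that scale, and probe sets of different genes differ in brightness for the same amount of RNA, so levels were not compared between genes.

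Folate carries one-carbon units at different oxidation states, and cells use them to make purines, thymidylate and methionine. Serine hydroxymethyltransferases (SHMT1 in the cytosol, SHMT2 in mitochondria) pass a carbon from serine to tetrahydrofolate and release glycine. MTHFD1 in the cytosol, and MTHFD2 and MTHFD1L in mitochondria, convert the carried unit between the methylene, methenyl and formyl states or release it as formate, and ALDH1L1 in the cytosol and ALDH1L2 in mitochondria oxidize 10-formyltetrahydrofolate to carbon dioxide. DMGDH and SARDH are flavoenzymes of the mitochondrial matrix that take methyl groups from dimethylglycine and sarcosine, on the route by which choline is broken down in liver.

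Of the 9 genes, 5 fell in the mutants (Dmgdh, Aldh1l1, Sardh, Shmt1 and Shmt2), 1 rose (Mthfd1l), and 3 did not pass the test (Mthfd1, Aldh1l2 and Mthfd2). The test was limma with an adjusted p under 0.05 over all genes, by which 5.33% of the genes tested fell, 4.73% rose and 10.1% changed in either direction. Among the 10849 genes detected above background on every array, 8.83% fell and 7.26% rose, and 7 of the 9 genes belong to that group. The median change of the 9 genes was -0.37, against 0.00 over all genes and -0.02 over genes detected on every array. The cytosolic genes, Shmt1, Mthfd1 and Aldh1l1, were all lower in mutants, with 2 of 3 past the test, and of the 6 mitochondrial genes 3 fell and 1 rose. None of the 9 genes had mutants and controls that did not overlap at all, which 1.48% of all genes had (all mutants below every control in 0.549%, all above in 0.933%). An unadjusted p under 0.05 with a lower mutant mean was found for 7 of the 9 genes and with a higher mean for 1, against 11.7% and 10.6% of all genes.

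**Figure D1:**
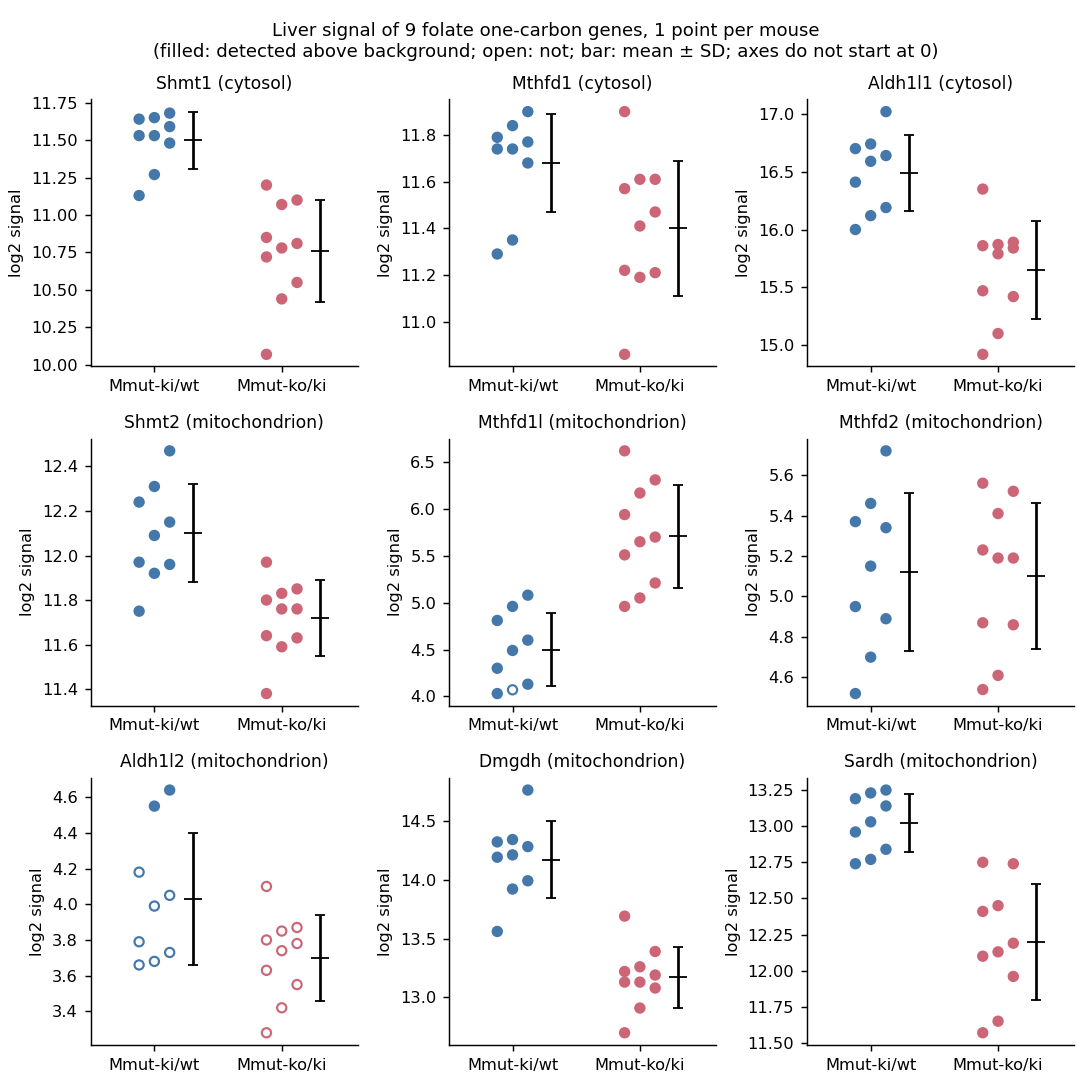
Log2 signal of each of the 9 genes, 1 point per mouse, in Mmut-ki/wt (blue, n = 9) and Mmut-ko/ki (red, n = 10) livers, with the mean ± SD as a black bar and open points for arrays on which the gene was not detected above background. For Shmt1, Aldh1l1, Dmgdh and Sardh, 9 of 10 mutants lie below every control, for Mthfd1l 8 of 10 lie above every control, and for Mthfd2 all 10 lie within the range of the controls.

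The stretches of DNA just before the start of the 4 genes that fell most and of the 1 that rose are shown first, so that the genes with the largest changes can be compared letter by letter. Each line gives the 250 bases before the annotated start, 5′ to 3′ on the gene's own strand, from RefSeq on build GRCm38.p6. The positions are chr11:60811266-60811515 (minus strand) for Shmt1, chr6:90550543-90550792 (plus strand) for Aldh1l1, chr13:93674186-93674435 (plus strand) for Dmgdh, chr2:27247304-27247553 (minus strand) for Sardh and chr10:3972825-3973074 (plus strand) for Mthfd1l. Capitals mark matches, on either strand, to CCAAT (the CCAAT box), GGGCGG (the GC box) and AGGTCA (the half-site of many nuclear receptors), so that ATTGG is a CCAAT box, CCGCCC a GC box and TGACCT a half-site on the opposite strand.
Shmt1: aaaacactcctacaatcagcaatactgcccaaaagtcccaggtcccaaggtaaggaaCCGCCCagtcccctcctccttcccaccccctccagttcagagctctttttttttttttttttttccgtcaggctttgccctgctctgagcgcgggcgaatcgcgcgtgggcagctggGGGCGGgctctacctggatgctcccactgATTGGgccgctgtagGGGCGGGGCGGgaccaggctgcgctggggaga
Aldh1l1: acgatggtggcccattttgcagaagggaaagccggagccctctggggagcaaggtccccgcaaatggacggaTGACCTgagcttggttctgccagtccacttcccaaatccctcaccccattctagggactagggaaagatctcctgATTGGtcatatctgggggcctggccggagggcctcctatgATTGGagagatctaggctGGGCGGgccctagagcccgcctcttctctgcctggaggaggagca
Dmgdh: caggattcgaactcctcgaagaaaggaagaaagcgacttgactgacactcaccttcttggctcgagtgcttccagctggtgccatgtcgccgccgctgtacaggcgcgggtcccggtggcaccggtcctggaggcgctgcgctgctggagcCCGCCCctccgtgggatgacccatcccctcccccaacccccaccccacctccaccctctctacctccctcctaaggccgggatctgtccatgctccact
Sardh: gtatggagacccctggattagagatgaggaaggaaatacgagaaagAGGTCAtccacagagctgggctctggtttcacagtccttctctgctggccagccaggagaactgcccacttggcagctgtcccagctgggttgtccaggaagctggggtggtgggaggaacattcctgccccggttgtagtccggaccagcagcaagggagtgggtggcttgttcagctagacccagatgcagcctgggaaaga
Mthfd1l: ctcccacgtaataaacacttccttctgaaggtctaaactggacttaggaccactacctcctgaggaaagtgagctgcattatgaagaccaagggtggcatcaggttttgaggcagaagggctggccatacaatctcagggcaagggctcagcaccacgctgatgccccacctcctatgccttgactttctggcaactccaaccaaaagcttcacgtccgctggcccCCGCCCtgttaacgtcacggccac

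Of the 9 genes, 8 have an entry in that table. The GC box was found in the windows of 5 of 8 (Shmt1, Mthfd1, Mthfd1l, Aldh1l1 and Dmgdh), against 32.7% of all 32851 windows of this length. Shmt1 holds 4 matches, of which the pair 32 and 27 bases before the start share a base, and Mthfd1l holds 1, 24 bases before its start. The CCAAT box was found in 4 of 8 (Shmt1, Mthfd1, Mthfd2 and Aldh1l1), against 33.8% of windows, and the half-site in 3 of 8 (Mthfd1, Aldh1l1 and Sardh), against 14.0%. The letters TGATGNAAT, a form of the site bound by C/EBP and ATF proteins, occur in 0.816% of windows and in none of these 8. Neither the GC box nor the CCAAT box was shared by all 4 of the printed genes that fell, and the GC box was also before the gene that rose. These are matches of letters and not binding sites. Base content differs as well, since the 5 windows with a GC box hold 54.4% to 64.8% G and C. The windows without it hold 40.8% (Shmt2), 52.4% (Mthfd2) and 57.6% (Sardh), and the median of all windows is 52.4%. The shares were not matched for base content.

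Mmut itself, on chromosome 17, served as the check of the labels. Its signal was 13.20 ± 0.23 (SD, n = 9) in controls and 11.54 ± 0.25 (SD, n = 10) in mutants, a change of -1.66 (SE 0.12, limma adjusted p = 5.28e-10), and all 10 mutants lay below every control. None of the 9 folate genes lies on that chromosome. Median signals ran from 5.138 to 5.246 on control arrays and from 5.193 to 5.254 on mutant arrays, 68.0% to 72.7% and 69.8% to 77.1% of probe sets were detected, and any pair of arrays correlated between 0.975 and 0.989. Hepatocyte markers were at the top of the scale, and 0 of 6 changed, with Alb, Apoa1 and Ttr at 19.91 in both groups near the highest value in the data, 19.93, so that a difference there may not show. Among markers of other cells, 4 of 6 Kupffer cell and macrophage genes rose (Vsig4 by 0.87, Clec4f by 0.72, Cd5l by 0.67 and Adgre1 by 0.55). The mean log2 signal of all 6 ran from 8.05 to 8.90 in controls and from 8.57 to 9.97 in mutants. One of 5 endothelial markers rose (Clec4g, by 0.67), 1 of 4 cholangiocyte markers fell (Sox9, -0.77, with Krt19 detected on 0 arrays), 1 of 2 erythroid markers fell (Alas2, -1.89), and 0 of the 17 measured stellate, lymphocyte, neutrophil and adipocyte markers changed, with Adipoq and Lep detected on 0 arrays. The part of these cells in the changes below was not tested, and in whole liver fewer cells of a type and less RNA per cell cannot be told apart.

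Dmgdh showed the largest fall of the 9 genes, and its product takes a methyl group from dimethylglycine, which leaves sarcosine, and hands the carbon to folate. In controls its signal ran from 13.56 through a median of 14.21 to 14.76, and in mutants from 12.70 through 13.16 to 13.69. The lowest control and the highest mutant overlapped by a small margin, since mutant 7 was the only mutant inside the range of the controls. The change was -1.0 (SE 0.14, 95% interval -1.29 to -0.72), which puts mutants at 49.9% of control signal (limma adjusted p = 1.33e-05, exact permutation p = 3.25e-05, two-sided).

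Sardh, which encodes the enzyme of the next step, from sarcosine to glycine, was lower by a similar amount. Controls ran from 12.74 through 13.03 to 13.25, and mutants from 11.57 through 12.16 to 12.75. Here mutant 10, and not mutant 7, was the only mutant inside the range of the controls. Mutant 2 lay at its edge, since its signal and that of the lowest control both round to 12.74. The change was -0.82 (SE 0.15, 95% interval -1.12 to -0.52), or 56.5% of control signal (limma adjusted p = 0.000361, exact permutation p = 7.58e-05).

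Aldh1l1, which encodes an abundant cytosolic enzyme of liver that ends the folate route by oxidizing the formyl unit, also fell. Its signal was between 16.00 and 17.02 in controls, with a median of 16.59, and between 14.92 and 16.35 in mutants, with a median of 15.82. The change was -0.84 (SE 0.17, 95% interval -1.18 to -0.50), or 55.8% of control signal (limma adjusted p = 0.00111, exact permutation p = 0.000238). As for Dmgdh, 9 mutants lay below every control and mutant 7 did not.

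Its mitochondrial relative Aldh1l2 could not be measured well. Only controls 8 and 9, 2 of 9, and 0 of 10 mutants gave a signal above background, with signals from 3.66 to 4.64 in controls and from 3.28 to 4.10 in mutants. Mutant signals therefore give only an upper bound on its level, and no fold is given. The measured difference was -0.33 (SE 0.14, limma adjusted p = 0.155, exact permutation p = 0.0309).

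Of the serine hydroxymethyltransferases, both fell, and the cytosolic gene by more. Shmt1 ran from 11.13 through 11.53 to 11.68 in controls and from 10.07 through 10.80 to 11.20 in mutants, with mutant 7 again the only mutant inside the range of the controls. Its change was -0.74 (SE 0.13, 95% interval -1.01 to -0.47), or 59.8% of control signal (limma adjusted p = 0.000365, exact permutation p = 5.41e-05).

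Shmt2, whose product supplies most of the mitochondrial one-carbon units in many cell types, changed less. Its signal ran from 11.75 through 12.09 to 12.47 in controls and from 11.38 through 11.76 to 11.97 in mutants. All 10 mutants lay below the control mean, but only 4 lay below every control. The change was -0.37 (SE 0.11, 95% interval -0.60 to -0.15), or 77.2% of control signal (limma adjusted p = 0.0255, exact permutation p = 0.000498). This call did not hold without control 8 (adjusted p = 0.0543), control 9 (0.0575) or mutant 9 (0.0505).

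Mthfd1l was the gene that rose. It encodes the mitochondrial 10-formyltetrahydrofolate synthetase, which exchanges formate with the formyl unit so that carbon can leave mitochondria as formate. Its signal was low, from 4.03 through 4.49 to 5.08 in controls and from 4.96 through 5.67 to 6.62 in mutants, and it was detected in 10 of 10 mutants and in all controls but control 4. Mutants 4, 7 and 8 had the lowest mutant signals, and 8 of 10 mutants lay above every control. The change was 1.22 (SE 0.20, 95% interval 0.80 to 1.63), a 2.32-fold higher signal in mutants (95% interval 1.75 to 3.09, limma adjusted p = 0.00015, exact permutation p = 9.74e-05). Near background a fold of signal can be smaller than the fold of RNA.

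Mthfd1, the trifunctional cytosolic enzyme, and Mthfd2, the mitochondrial dehydrogenase and cyclohydrolase, did not pass the test. Mthfd1 was between 11.29 and 11.90 in controls (median 11.74) and between 10.86 and 11.90 in mutants (median 11.44), with 9 of 10 mutants below the control mean and a change of -0.27 (SE 0.13, limma adjusted p = 0.195, exact permutation p = 0.0346). Mthfd2 gave the smallest difference of the 9 genes, at -0.02 (SE 0.16, 95% interval -0.36 to 0.31, limma adjusted p = 0.96). Its signals ran from 4.52 through 5.15 to 5.72 in controls and from 4.54 through 5.19 to 5.56 in mutants, and the groups overlapped fully. The interval is that of a low signal, and a change of the RNA could be larger.

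**Figure D2:**
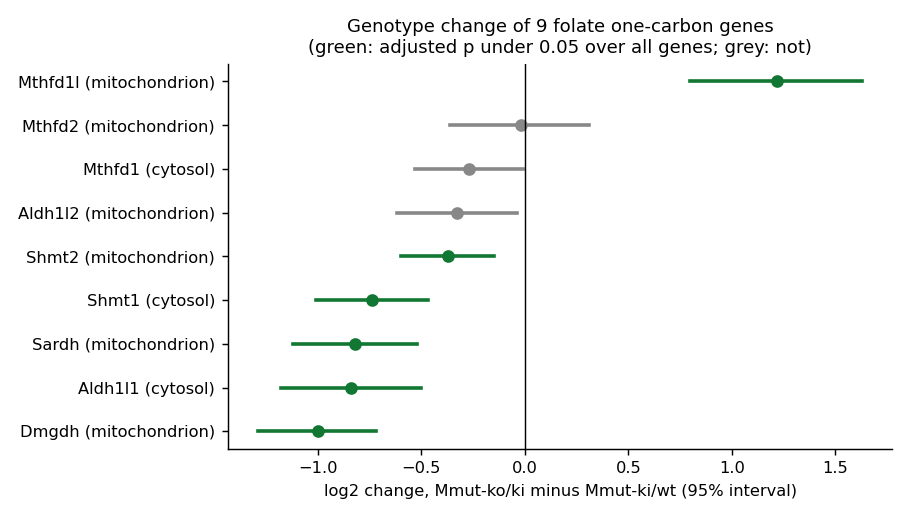
Change of each of the 9 genes (horizontal axis, log2, mutant minus control), with points for the estimate and lines for the 95% interval, green where the adjusted p over all genes was under 0.05 and grey where it was not. Dmgdh lies lowest at -1.0 and Mthfd1l highest at 1.22, and the interval of Mthfd2 runs from -0.36 to 0.31.

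Whether a mitochondrial gene changed differently from its cytosolic relative was tested within each mouse, as the difference of the 2 log2 signals, in 3 pairs by exact permutation with p adjusted over the 3. Mthfd1l minus Mthfd1 was higher by 1.49 in mutants (SE 0.29, permutation p = 5.41e-05, adjusted p = 0.000162), and the value of 9 of 10 mutants exceeded that of every control. Shmt2 minus Shmt1 was higher by 0.37 (SE 0.11, permutation p = 0.00523, adjusted p = 0.00784), and 4 of 10 mutants exceeded every control, so the fall of Shmt1 exceeded that of Shmt2. Aldh1l2 minus Aldh1l1 was higher by 0.51 (SE 0.22, permutation p = 0.0305, adjusted p = 0.0305), but Aldh1l2 was not above background in most mice and could hardly fall further, so this value does not show that the 2 genes changed differently. Its adjusted p was 0.0769 after quantile normalization, and between 0.0566 and 0.0654 without control 1, control 3, mutant 3 or mutant 9, with differences from 0.40 to 0.45.

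**Figure D3:**
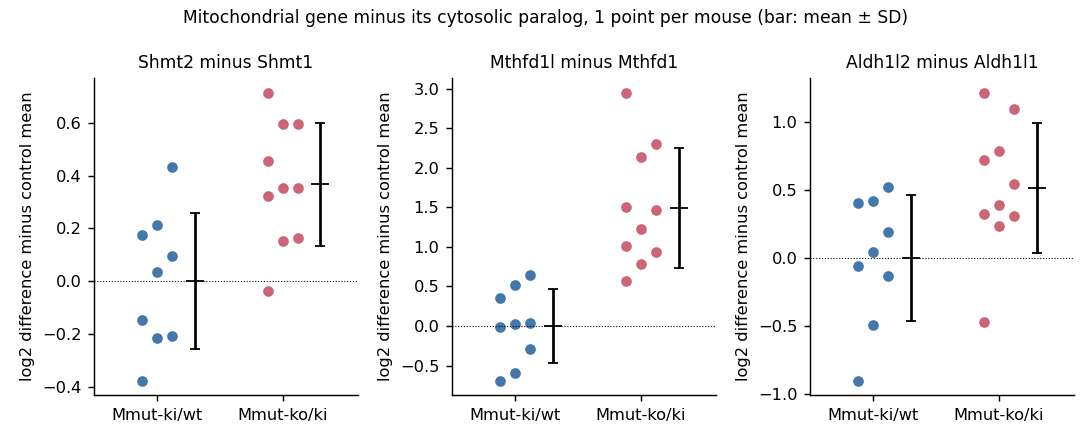
Log2 signal of the mitochondrial gene minus that of its cytosolic relative, per mouse, with the mean of the controls set to 0 (dotted line) and the mean ± SD of each group as a black bar (n = 9 controls and 10 mutants). The mutant mean lies at 0.37 for Shmt2 minus Shmt1, 1.49 for Mthfd1l minus Mthfd1 and 0.51 for Aldh1l2 minus Aldh1l1, a value limited by Aldh1l2, which was above background in 2 of 9 controls and 0 of 10 mutants.

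The size of the changes varied from mouse to mouse, and several genes shared the same extremes. Mutant 9 had the lowest mutant signal for 5 genes (Shmt1, Shmt2, Mthfd1, Aldh1l1 and Dmgdh) and the highest for Mthfd1l, while its Mmut signal, 11.52, lay in the middle of the mutants. Mutant 7 had the highest mutant signal for Shmt1, Aldh1l1 and Dmgdh and the lowest for Mthfd1l, with an Mmut signal of 11.48. Without mutant 9 the count that fell was 4 in place of 5, Shmt2 being the one lost, and Mthfd1l still rose. Among controls, control 3 was highest for Mthfd1, Aldh1l1 and Dmgdh, and control 5 lowest for Shmt1, Aldh1l1 and Sardh.

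**Figure D4:**
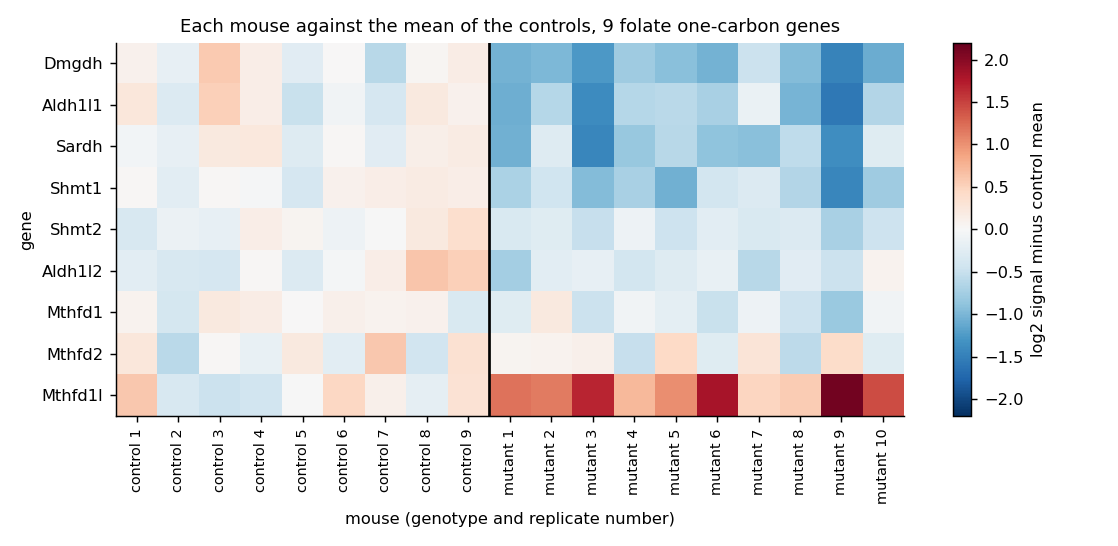
Log2 signal of each gene (rows) in each mouse (columns) minus the mean of the 9 controls, blue for lower and red for higher, with a black line between controls and mutants. The column of mutant 9 is the deepest blue for Dmgdh, Aldh1l1 and Shmt1 and the deepest red for Mthfd1l, and that of mutant 7 is among the palest.

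Correlations between the genes are given as descriptions, with no test, over mice whose signals were normalized together. Aldh1l1 and Dmgdh varied together in both genotypes, with Pearson's r = 0.89 (Spearman's rho 0.83) over 9 controls and r = 0.89 (rho 0.83) over 10 mutants. Leaving out the 2 mice farthest from the median of Aldh1l1 gave r = 0.89 in controls and 0.74 in mutants. Among the 10 pairs of genes that fell, r ran from 0.38 to 0.89 within mutants and from -0.09 to 0.89 within controls. For Mthfd1l r was negative in mutants, from -0.87 to -0.43 against the 5 genes that fell, where in controls r was between -0.25 and 0.28. Mutants 9 and 7 were extreme for several of these genes, so both ranges in mutants can rest on these mice. Mice were left out only for the pairs for which such values are given here. With Dmgdh, r was -0.87 (rho -0.89) in mutants and -0.21 (rho -0.25) in controls, and without the 2 mice farthest from the median of Mthfd1l it was -0.76 and -0.46. With Aldh1l1, r was -0.65 in mutants and -0.14 in controls, and without the 2 mice farthest from the median of Mthfd1l it was -0.19 and -0.42, so the value for this pair in mutants rests on mutants 7 and 9. The difference between genotypes in these correlations was not tested.

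Over all 19 arrays, with each genotype's mean taken out, the genes most like each changed member were named by Pearson's r. For Aldh1l1 they were Cox7b, a subunit of cytochrome c oxidase (r = 0.92), and Dmgdh (0.87), and for Dmgdh they were Aldh1l1 (0.87) and Cox7b (0.84). For Shmt1 they were the odorant receptor gene Olfr175 and Msmo1, an enzyme of cholesterol synthesis (0.85 each), and for Shmt2 Ubl7 (0.83) and Tomm6, a part of the mitochondrial import pore (0.80). Sardh was most like Izumo4 (0.79) and Hpd, an enzyme of tyrosine breakdown (0.76), and Mthfd1l most like Nrros (0.83) and Fam76a (0.78). With 1 value chosen as the highest of all genes, such r are high by selection.

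Few other genes of the folate pathway changed. Of 32 further genes listed, 29 were measured, and of these 1 rose and 2 fell while the test left 26 uncalled, with a median change of -0.04. Read against the 10.1% of all genes that changed in either direction, 3 of 29 is close to the background. Of the 29 genes, 26 were detected on every array. Among all genes detected on every array, 7.26% rose and 8.83% fell, and neither count of the 29 exceeds that share.

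Bhmt encodes betaine-homocysteine methyltransferase, which makes the dimethylglycine that DMGDH uses. It ran from 18.05 through 18.56 to 19.18 in controls and from 14.85 through 16.83 to 18.51 in mutants, a change of -1.95 (SE 0.30, limma adjusted p = 6.73e-05), or 25.9% of control signal. The control signals lie toward the top of the scale, where the highest value in the data was 19.93. Whether signal is compressed there was not tested, so the percentage for the RNA may differ. Mutant 7 was the only mutant inside the range of the controls, as it was for Dmgdh, Aldh1l1 and Shmt1. In the order of annotated genes on chromosome 13, Bhmt, Bhmt2 and Dmgdh follow each other. Bhmt2, which lies between, had a change of 0.06 (adjusted p = 0.878), and Arsb, the next gene after Dmgdh, had 0.00 (adjusted p = 0.996). Up to 2 genes on each side of every other member were also looked at, and of those measured 2 fell. They were Dhrs7b, next to Shmt1 (-0.64, limma adjusted p = 0.00129), and Slc41a2, 2 genes from Aldh1l2 (-3.02, limma adjusted p = 4.55e-08). Over all genes 5.33% fell. The neighbours were not tested as a set, and no result about position is drawn from them.

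Chdh, the choline dehydrogenase that starts the route to betaine, moved the other way. It was between 9.45 and 10.06 in controls and between 10.18 and 11.65 in mutants, with no overlap, and rose by 0.98 (SE 0.16, limma adjusted p = 0.00014), or 1.97-fold. Along the choline route in order, Chdh rose, Aldh7a1 did not pass the test (-0.27, adjusted p = 0.12), and Bhmt, Dmgdh and Sardh fell. These genes were brought together from different lists, and the route was not tested as a set. Pipox, an enzyme that oxidizes sarcosine in peroxisomes, had a change of -0.16 (adjusted p = 0.39), and Gnmt, which makes sarcosine from glycine, -0.26 (adjusted p = 0.173).

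Ftcd, which passes the formimino group of histidine breakdown to folate, fell by 0.57 (SE 0.12, limma adjusted p = 0.00184). Controls ran from 12.94 to 13.33 and mutants from 12.09 to 12.89, without overlap. The other 6 measured genes of folate interconversion and nucleotide synthesis did not pass the test, among them Tyms (-0.13), Gart (-0.01) and Atic (-0.24). In the list for the entry of methyl groups into methionine, Mtr, which takes the methyl group from folate, had -0.15 (adjusted p = 0.46) and Mtrr 0.11 (adjusted p = 0.786).

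None of 6 genes for folate uptake and retention passed the test, the nearest being Ggh, a hydrolase of folate polyglutamates (0.43, SE 0.15, adjusted p = 0.0594), which passed under 6 alternative settings. None of the 4 genes for serine synthesis and mitochondrial serine import passed it, the nearest being the serine carrier Sfxn1 (-0.25, adjusted p = 0.226), and Phgdh, the first step of serine synthesis, was detected on 0 arrays. The glycine cleavage genes Gldc (-0.25), Amt (-0.24), Gcsh (-0.03) and Dld (0.02) did not pass it either.

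Mthfd2, Shmt2, Mthfd1l and Aldh1l2 are known targets of ATF4, the transcription factor of the integrated stress response. A chosen list of other genes of that response was therefore counted, and it does not hold the whole response. Fgf21, which the paper reports as raised in these livers by qRT-PCR, was not on the list. Of 12 measured, 1 rose and 1 fell, against 4.73% and 5.33% of all genes, with a median change of 0.08. A count of 1 in each direction among these 12 genes is near that background, and it does not speak for genes outside the list. Asns, the asparagine synthetase and a classical ATF4 target, fell by 0.68 (SE 0.17, limma adjusted p = 0.0102), and 7 of 10 mutants were lower than any control. Cebpb rose by 0.44 (SE 0.14, limma adjusted p = 0.0389), a call lost without any 1 of 10 different mice (adjusted p up to 0.0855). Atf4 itself had a change of -0.34 (adjusted p = 0.201), Ddit3 0.14 and Trib3 -0.03. Among the 4 folate targets, Mthfd1l rose, Shmt2 fell, and Mthfd2 and Aldh1l2 did not pass the test.

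**Figure D5:**
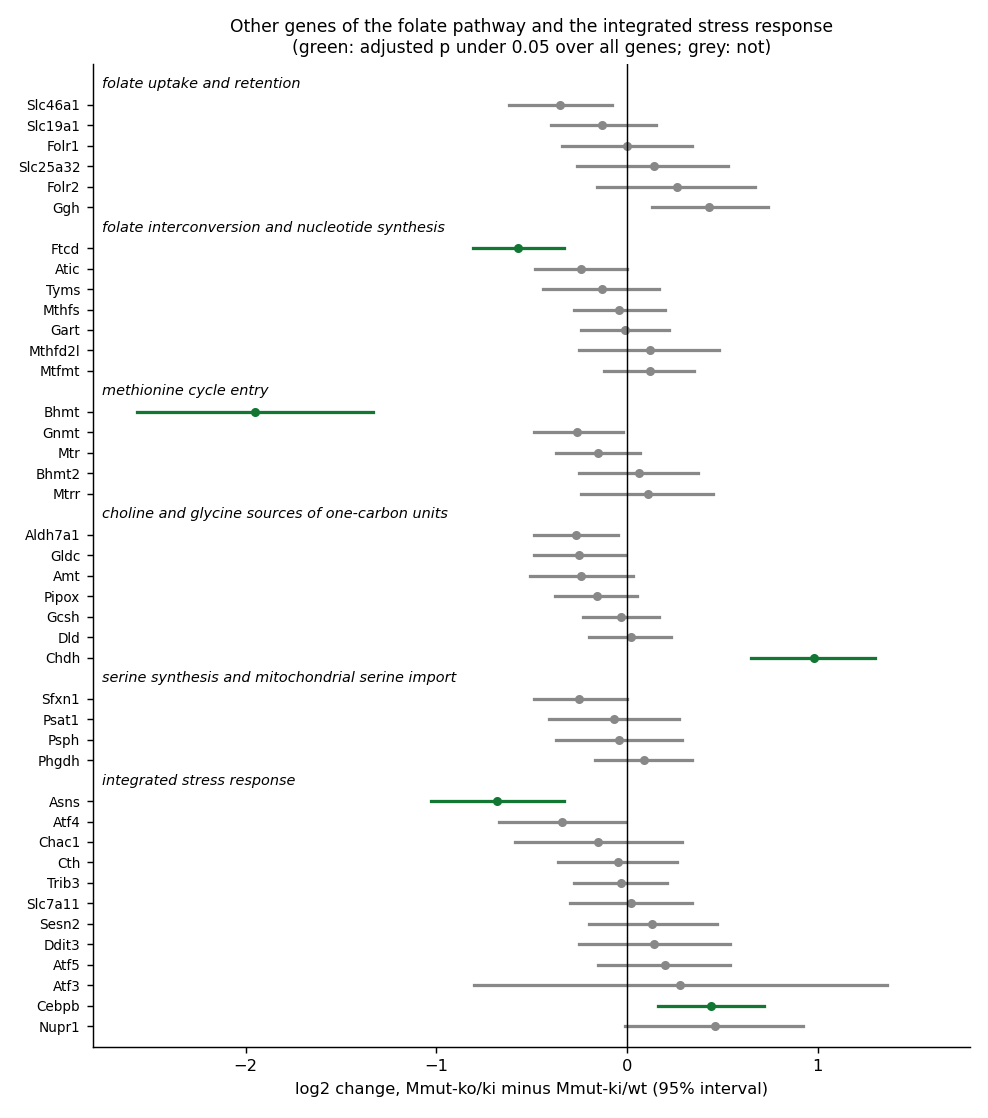
Change (horizontal axis, log2, mutant minus control, with the 95% interval) of 29 further genes of the folate pathway and 12 of the integrated stress response, grouped by the lists named in italics, green where the adjusted p over all genes was under 0.05. Bhmt lies lowest at -1.95 and Chdh highest at 0.98, and most intervals cross 0.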

How the data were processed

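Total RNA of whole liver was extracted with TRIzol and a column kit, amplified and put on Mouse Clariom S arrays, 1 per mouse. The authors deposited log2 signals per probe set, normalized together with SST-RMA, a robust multiarray average, and a detection p-value for each. A second deposited table of the log2 signals differed by at most 0.0005. No further normalization was applied. The table has 22206 probe sets, of which 19572 name 1 gene and 2634 are unnamed in the annotation used here. For 55 genes with several probe sets, the brightest was used. Detected means a detection p under 0.05, and no filter on dim genes was applied. The number of arrays limits precision.

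Genotypes were compared with limma 3.58.1 in R 4.3.3 (lmFit, eBayes, two-sided, Benjamini-Hochberg over all 19505 genes, threshold 0.05), and single values also by exact permutation over 92378 splits in Python 3.11.15 (scipy 1.17.1). The pipeline was tested on simulated data. Named were all 9 genes, Mmut, every changed gene of the pathway and stress lists (where none changed, the one with the smallest adjusted p) and 2 genes most like each changed member. Other genes were named after their values were seen. The members and lists were chosen with earlier results of these data known. Replicate numbers occur in both genotypes. Same-numbered mice correlated between -0.093 and 0.058 in their deviations from the group mean over all genes, which gives no sign of pairing. The labels do not say what the numbers stand for, and a small shared effect could be missed this way. Alternatives were other limma settings, the t-test and Wilcoxon test that the methods name, the second table, median centring, quantile normalization, a filter on dim genes, array weights, a replicate block, the mean over probe sets and leaving out each array. Array images were not used here.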

Additional observations from a re-analysis of the deposited data

How the results depend on the processing

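Over 31 alternative settings, 278 refits of the 9 genes were made, of which 264 kept the direction and the side of the threshold. The 4 that lost a call were all of Shmt2 (replicate block, adjusted p = 0.0987, and the 3 left-out mice given above). The 10 that changed sign were all of Mthfd2, whose change stayed near 0. It was 0.00 with the replicate block and 0.00 with the same 18 arrays and no block (a setting chosen after seeing the data), and ran from -0.10 to 0.05 with single mice left out. Mthfd1l rose in every setting, and 4 or 5 of the 9 genes fell. Over all genes 717 to 1021 rose and 771 to 1237 fell. With the replicate block, 717 rose, 771 fell and 4 of the 9 genes fell, and it did not move the direction of any of the 6 called genes.

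The change of Aldh1l2 minus Aldh1l1 was 0.43 after quantile normalization (adjusted p = 0.0769) and 0.49 with the replicate block (adjusted p = 0.0977), and 0.40 to 0.62 with single mice left out. Of the stress genes, 0 rose under the Wilcoxon test that the methods name, with median centring, with the replicate block and without control 1 and mutant 1 together (chosen after seeing the data), where 2 fell, and 0 to 1 rose with single mice left out. Of the wider pathway, 2 rose with limma's trend and robust options, after quantile normalization and without dim genes, and 1 to 2 with single mice left out, Ggh being the gene added. The count of the wider pathway that fell was 3 in place of 2 with limma's trend and robust options and without control 1. It was also 3 without control 1 and mutant 1 together. The causes were not tested. The filter on dim genes removed Aldh1l2, so that setting gives no value for it. Detection above background limits Aldh1l2 and, in controls, Mthfd1l, and the median change of all genes was furthest from 0 with median centring, at -0.032.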
